A study of Mus musculus with 6 samples.

Results

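Expression of C1qa, C1qb, C1qc, Cfp, C3ar1 and C5ar1 was examined in mouse cells. These are the genes for the C1q chains, properdin and the receptors of the complement peptides C3a and C5a. The cells were bone marrow-derived dendritic cells, follicular dendritic cells, which are stromal cells despite their name, and a line like the latter. The 6 genes were taken by name, with every probe set annotated to one of them and to no other gene, which gave 12 of the 45101 probe sets on the array: 1 for C1qa, 3 for C1qb, 1 for C1qc, 2 for Cfp, 3 for C3ar1 and 2 for C5ar1. Total RNA was labelled with biotin and hybridised to 1 array per sample. The samples were bone marrow-derived dendritic cells (BMDC, 2 arrays), follicular dendritic cells grown in vitro (FDC, 2 arrays), FL-Y, an FDC-like line transformed with SV40 (1 array), and FL-Y activated with an antibody to the lymphotoxin beta receptor (1 array). Neither the strain, age, treatment nor culture time of the primary cells is given in the sources used here. No label ties the paired arrays to separate cultures or animals. Each p-value therefore sets a difference between groups against the scatter between these arrays, and that scatter may be technical only. FL-Y is a single line, and its 2 arrays are 1 of each condition.

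C1q is the recognition part of the first component of complement. Its A, B and C chains, each with a collagen-like stalk and a globular head, assemble into one molecule that binds antibody in immune complexes and starts the classical pathway when its partner proteases C1r and C1s are attached. Macrophages and dendritic cells are main sources of C1q, whereas most complement proteins in plasma come from the liver. Properdin, encoded by Cfp on the X chromosome, stabilises the convertase of the alternative pathway and is released by myeloid cells. C3ar1 and C5ar1 encode G protein-coupled receptors for C3a and C5a, the small peptides cut from complement proteins that attract and activate leukocytes. FDC form part of the stroma of B cell follicles and are known for holding antigen coated with antibody and complement.

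The labelled cell types were checked against defining genes. BMDC had signals of 19951 and 18428 for Itgax, the CD11c integrin, and of 51842 and 40411 for the class II chain H2-Aa. The FDC arrays had high signals for stromal genes. But the complement receptor Cr2, a classical FDC marker, was at 119.5 and 4.1 in FDC against 59.1 and 71.1 in BMDC. The low-affinity IgE receptor Fcer2a was at 104.1 and 42.4 against 54.8 and 61.4. Of the other FDC markers checked, the B cell chemokine Cxcl13 was at 1288 and 64.5 in FDC against 50.9 and 36.4 in BMDC. Madcam1 was at 107.5 and 69.6 against 80.1 and 76.3, and Mfge8, which binds apoptotic cells, at 5146 and 6484 against 27358 and 25082. In the comparison of FDC with BMDC described below, none of these FDC markers passed the threshold as higher in FDC, and Mfge8 passed as lower. The leukocyte antigen Ptprc was at 13794 and 7715 in BMDC, 823 and 423 in FDC and 12.8 in FL-Y. Array medians lay between 47.9 and 84.4 signal units, and the 20th percentile of each array, taken as a rough mark of background, lay between 8.7 and 15.4. That mark is no limit of detection, so brighter signals too can be background. Control probe sets showed a ratio of labelling to hybridisation controls of 0.0911 and 0.101 on the first arrays of BMDC and FDC, of 0.396 and 0.258 on the second arrays, and of 0.0571 and 0.0651 on the FL-Y arrays, so differences within each pair of first and second arrays are given beside the results. The ratio of 3' to 5' signal was between 0.808 and 0.904 for Gapdh and between 1.01 and 1.16 for Actb. In bulk RNA, fewer cells that express a gene and less of its RNA per cell cannot be told apart.

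The C1q genes lie next to each other on chromosome 4, with 0 other genes between the first and the last in the RefSeq annotation of GRCm38.p6. Promoter windows, 250 bases before to 50 bases after a gene's start, were held for 5 of the 6 genes in the RefSeq table (build GRCm38.p6), all but C1qa. They are shown for the 4 of these genes that were lower in FDC on at least 1 probe set, to set C1qb and C1qc, neighbours in the genome, beside 2 genes from other chromosomes that were lower in the same cells. Capitals mark matches, on either strand, to the PU.1 core GAGGAA, the AP-1 site TGACTCA and the MAF half-site TGCTGA, short motifs of transcription factors known in myeloid cells. The marked matches do not overlap each other.
C1qb, chr4:136886151-136886450, minus strand: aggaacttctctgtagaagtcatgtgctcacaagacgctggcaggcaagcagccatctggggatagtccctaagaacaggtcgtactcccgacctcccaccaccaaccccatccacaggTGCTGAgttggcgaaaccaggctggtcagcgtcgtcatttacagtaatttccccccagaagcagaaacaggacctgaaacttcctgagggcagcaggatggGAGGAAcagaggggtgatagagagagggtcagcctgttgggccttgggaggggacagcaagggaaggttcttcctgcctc
C1qc, chr4:136892865-136893164, minus strand: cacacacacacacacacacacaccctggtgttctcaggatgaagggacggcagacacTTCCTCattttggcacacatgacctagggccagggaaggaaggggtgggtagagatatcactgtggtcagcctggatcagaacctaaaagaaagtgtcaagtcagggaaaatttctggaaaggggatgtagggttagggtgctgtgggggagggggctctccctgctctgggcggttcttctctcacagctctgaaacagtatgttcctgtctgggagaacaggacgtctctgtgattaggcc
Cfp, chrX:20931506-20931805, minus strand: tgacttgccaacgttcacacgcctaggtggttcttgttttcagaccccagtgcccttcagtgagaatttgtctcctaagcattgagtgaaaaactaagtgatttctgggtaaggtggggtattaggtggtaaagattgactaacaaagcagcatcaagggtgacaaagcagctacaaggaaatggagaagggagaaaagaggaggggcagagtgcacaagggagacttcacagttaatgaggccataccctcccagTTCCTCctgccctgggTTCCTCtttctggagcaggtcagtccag
C3ar1, chr6:122856108-122856407, minus strand: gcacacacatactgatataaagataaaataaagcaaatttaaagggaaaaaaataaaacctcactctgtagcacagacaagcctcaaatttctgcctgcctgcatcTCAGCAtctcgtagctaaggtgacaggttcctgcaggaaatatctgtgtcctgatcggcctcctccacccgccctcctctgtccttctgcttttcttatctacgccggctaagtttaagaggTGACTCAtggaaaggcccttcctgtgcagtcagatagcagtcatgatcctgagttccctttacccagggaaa

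The PU.1 core was found once in the C1qb window, once in that of C1qc and at 2 places in that of Cfp, the last both downstream of the start, and 0 times in those of C3ar1 and C5ar1. Of 32851 promoter windows of the same length, 28.3% held it. The MAF half-site was matched once each in C1qb, C3ar1 and C5ar1, against 19.5% of all windows. The AP-1 site was matched once, in C3ar1, 22 bases before the start, against 5.2% of all windows. These matches describe the printed letters only.

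The comparison of FDC with BMDC, which the study's design names, asked how far the expression profiles of the 2 cell types differ. All 6 genes had higher signals in BMDC. For 11 of the 12 probe sets both BMDC arrays lay above the other 4 arrays, against 19.3% of all 27022 probe sets tested. Values were compared as log2(signal + 14.2), a scale on which every difference between groups is given and which understates the change of dim genes; folds between the BMDC arrays are plain ratios of signals. In limma, with p adjusted by Benjamini-Hochberg over the whole table, 7 of the 12 probe sets, from 5 of the 6 genes, were lower in FDC and 0 were higher, where 4.09% of all probe sets tested were lower and 4.84% higher, 8.93% in all. The 7 differences ranged from 26.2-fold to 167-fold. The median difference of the 12 was -5.29, beside -0.05 over all probe sets tested. All 12 had passed the filter on low values, and for 8 of them the mean log2 value of the FDC arrays was under the level of that filter while that of the BMDC arrays was above it, so the counts over these probe sets describe them and support nothing further.

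**Figure D1:**
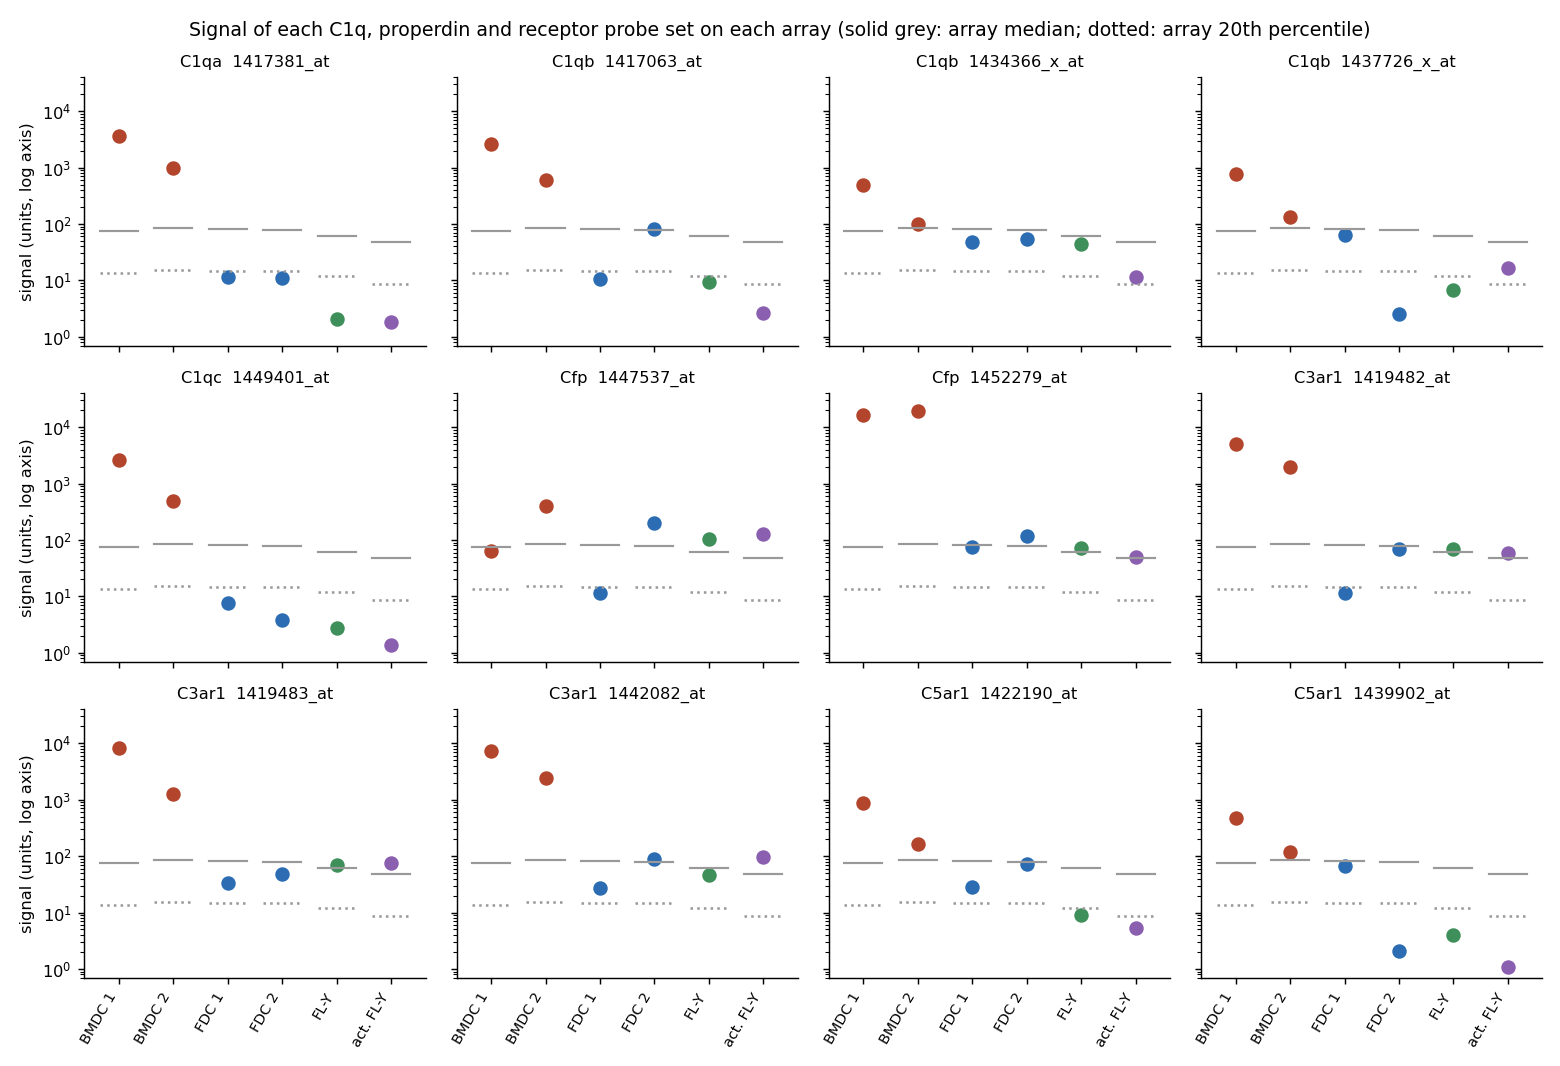
Signal on each of the 6 arrays for the 12 probe sets of C1qa, C1qb, C1qc, Cfp, C3ar1 and C5ar1 (log axis, signal units; 1 point per array; solid grey line, the median of that array; dotted grey line, its 20th percentile). Both BMDC arrays lie above the other 4 arrays in every panel but that of the second Cfp probe set, 1447537_at, and the BMDC points of the C1q chains and the receptors are spread from 2.6-fold to 6.32-fold apart.

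The A and C chains of C1q were at background level in FDC and FL-Y. C1qa had signals of 3655 and 969.7 in BMDC, 11.4 and 11.0 in FDC, 2.1 in FL-Y and 1.8 in activated FL-Y. The groups did not overlap, and the FDC and FL-Y signals were all under the 20th percentile of their arrays. C1qa was lower in FDC by a log2 difference of -6.23 ± 0.69 (SE), with an adjusted p of 0.0079 in limma. C1qc, which completes the trimer of chains, had signals of 2652 and 485.4 in BMDC, 7.5 and 3.8 in FDC, 2.8 in FL-Y and 1.4 in activated FL-Y. Its 4 stromal signals were likewise all under the 20th percentile. The difference between FDC and BMDC was -5.87 ± 0.83 (SE), with an adjusted p of 0.0158 in limma.

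C1qb was read by 3 probe sets that did not give the same size of difference. Probe set 1417063_at had signals of 2644 and 602.2 in BMDC, 10.6 and 82.4 in FDC, 9.3 in FL-Y and 2.6 in activated FL-Y. It was lower in FDC by -4.71 ± 0.95 (SE; adjusted p = 0.0437 in limma), and was no longer called when BMDC array 1 (-3.65, adjusted p = 0.105) was left out, or when FDC array 1 was (-3.73, adjusted p = 0.106). FDC array 2 was the higher of the FDC arrays here, at about the median of that array. Probe set 1434366_x_at was dimmer, with 499.3 and 99.9 in BMDC, 48.0 and 54.1 in FDC, 43.5 in FL-Y and 11.7 in activated FL-Y, and a difference of -1.89 ± 0.76 (SE; adjusted p = 0.217). Probe set 1437726_x_at had 754.4 and 131.3 in BMDC, 64.7 and 2.5 in FDC, 6.7 in FL-Y and 16.6 in activated FL-Y, with -3.20 ± 1.07 (SE; adjusted p = 0.150). In the naming of this array type, the x marks probe sets whose probes can match other transcripts as well. All 3 C1qb probe sets had both BMDC arrays above the rest, although only the brightest passed the threshold. With a block by replicate number in limma, 1417063_at did not pass (adjusted p = 0.0869) and 1437726_x_at did (0.0211). No label names this block as a batch or as a pairing.

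Cfp, properdin, showed the largest difference of the 6 genes and the smallest spread between the BMDC arrays. Probe set 1452279_at had signals of 16694 and 19694 in BMDC, 75.0 and 118.9 in FDC, 73.0 in FL-Y and 49.2 in activated FL-Y. Its BMDC signals lay at percentiles 99.0 and 99.3 of their arrays, and its FDC signals near the array medians, at percentiles 47.7 and 58.2. The mean was 18194 ± 2121 (SD, n = 2) in BMDC and 97.0 ± 31.0 (SD, n = 2) in FDC, a log2 difference of -7.38 ± 0.41 (SE; adjusted p = 0.00264 in limma). The second Cfp probe set, 1447537_at, went its own way: 64.8 and 398.1 in BMDC, 11.6 and 198.9 in FDC, 105.1 in FL-Y and 128.8 in activated FL-Y. Here the groups overlapped, the second array of each primary cell type was the higher one, and the difference was -1.28 ± 1.24 (SE; adjusted p = 0.605).

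C3ar1, the C3a receptor, was lower in FDC on all 3 of its probe sets. Probe set 1442082_at, the brightest on average, had signals of 7402 and 2389 in BMDC, 27.6 and 87.6 in FDC, 46.6 in FL-Y and 95.6 in activated FL-Y, and differed between FDC and BMDC by -6.02 ± 0.73 (SE; adjusted p = 0.0105 in limma). Probe set 1419482_at had 5097 and 1963 in BMDC, 11.6 and 70.0 in FDC, 69.0 in FL-Y and 58.6 in activated FL-Y, a difference of -6.09 ± 0.76 (SE; adjusted p = 0.0114). Probe set 1419483_at had 8092 and 1281 in BMDC, 33.9 and 47.4 in FDC, 70.6 in FL-Y and 74.9 in activated FL-Y, a difference of -5.90 ± 0.89 (SE; adjusted p = 0.0192), and was not called when FDC array 1 was left out (-5.72, adjusted p = 0.0594). The 3 probe sets thus gave like differences, and on each the BMDC arrays lay apart from the other 4.

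C5ar1, the C5a receptor, did not pass the threshold on either probe set when all 4 arrays were fitted without the block by replicate number. Probe set 1422190_at had signals of 890.2 and 165.4 in BMDC, 27.8 and 71.1 in FDC, 9.2 in FL-Y and 5.4 in activated FL-Y. Both BMDC arrays were above all others, with BMDC array 1 far above BMDC array 2. The difference was -2.75 ± 0.86 (SE; adjusted p = 0.130 in limma), and became a call when BMDC array 2 was left out (-3.92, adjusted p = 0.0431). Probe set 1439902_at had 477.5 and 119.2 in BMDC, 66.9 and 2.1 in FDC, 4.0 in FL-Y and 1.1 in activated FL-Y. Its difference was -2.82 ± 0.98 (SE, adjusted p = 0.165 in limma), and it passed with the block by replicate number (adjusted p = 0.0282). C5ar1 was the gene with the smallest difference of the 6, read by the brightest probe set of each; its difference was not tested against those of the other genes.

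**Figure D2:**
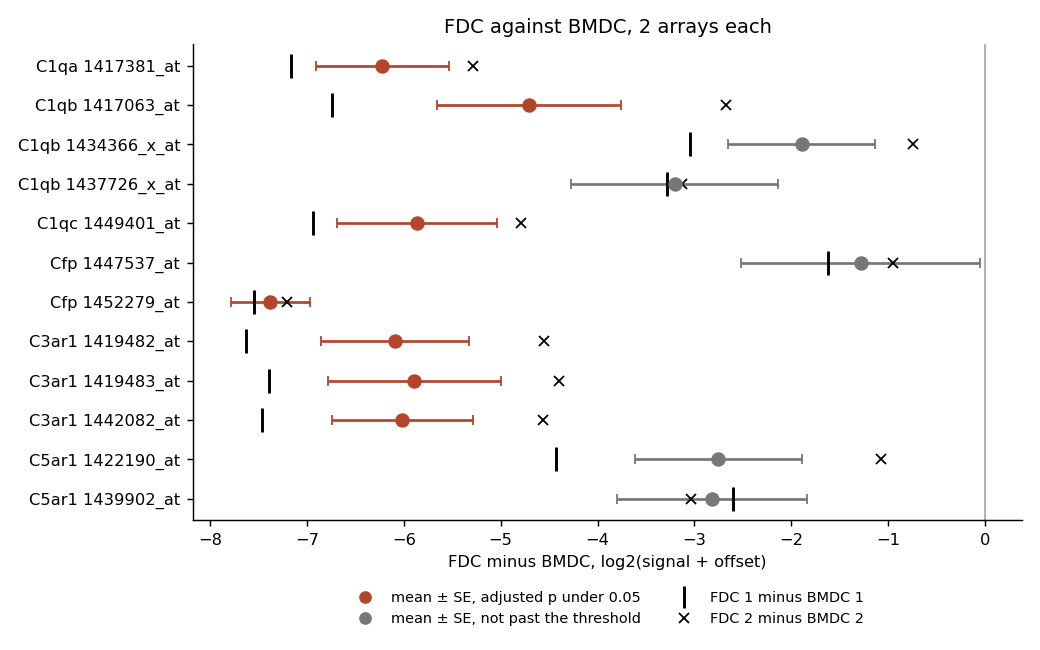
Log2 difference of FDC minus BMDC for each of the 12 probe sets (point, mean over 2 arrays each; bar, SE from limma; red, adjusted p under 0.05; grey, not past the threshold), with the value of the first array pair (vertical mark) and of the second pair (cross). All differences lie below 0, the first pair gives the larger size in 11 of 12, and Cfp 1452279_at has both marks close together at -7.55 and -7.21. The pairs follow the replicate number, which no label says pairs the samples.

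The size of the difference depended on which arrays were set against each other. The pairs were made by replicate number, and the labels do not say that these numbers pair the samples. With that pairing all 12 probe sets were lower in FDC in both pairs, a count that was not made over all probe sets. Cfp 1447537_at would break it under the crossed pairing, with 198.9 on FDC array 2 and 64.8 on BMDC array 1. In the first pair the differences ran from -7.63 to -1.61 with a median of -6.84, and in the second pair from -7.21 to -0.74 with a median of -3.76; over all probe sets tested the medians were -0.01 and -0.09. C1qb 1417063_at was the widest case among the called probe sets, at -6.74 in the first pair and -2.67 in the second, and C3ar1 1442082_at stood at -7.47 and -4.56. With 2 arrays a group the smallest two-sided p of an exact permutation test is 0.333, so that test was not used.

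The BMDC arrays differed more than the FDC arrays for 8 of the 12 probe sets, and less for 4, namely both of Cfp, C3ar1 1419482_at and C5ar1 1439902_at. The same count was not made over all probe sets, and the log2 scale with its offset understates differences between dim FDC signals. It describes the 12 probe sets only. C1qa was 3.77-fold brighter on BMDC array 1 than on BMDC array 2, C1qc 5.46-fold, C1qb 1417063_at 4.39-fold, C3ar1 1442082_at 3.10-fold and C5ar1 1422190_at 5.38-fold. On the log2 scale 10 of the 12 probe sets were higher by at least 1 on BMDC array 1, against 9.26% of all probe sets tested, and 1 was higher by at least 1 on BMDC array 2, the dim Cfp 1447537_at, against 10.6%. Cfp 1452279_at differed by -0.24 in the direction of BMDC array 2. Between the FDC arrays 5 of the 12 were higher by at least 1 on FDC array 2 and 2 on FDC array 1, against 11.3% and 12.1%. Each of these is a difference between 2 arrays of 1 group, with no replicate check, and probe sets of 1 gene read the same RNA.

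Cell type markers moved with this spread in part. Of 12 tested macrophage and monocyte markers 4 were higher by at least 1 on BMDC array 1 and 1 on BMDC array 2, with a median of 0.44 on the log2 scale; over all 14 of the list on the array the summed signal was 170765 and 120618 in BMDC. Among them, chosen after their values were seen, the apoptotic cell receptor Mertk (1574 and 353) and the mannose receptor Mrc1 (8084 and 1798) were unequal between the arrays like the C1q chains, while Csf1r (40660 and 26995) and Adgre1 (8197 and 8172) were closer. Others of the list went the other way and were higher on BMDC array 2: Fcgr1 (117.5 and 1346), Ccr2 (4855 and 7901) and Cd14 (4474 and 7511). Of 9 granulocyte markers 1 was higher on BMDC array 1 and 4 on BMDC array 2, with a median of -0.98 and summed signals of 82991 and 149293. Mast cells are another cell type with anaphylatoxin receptors: 4 of 9 mast cell markers were higher on BMDC array 1 and 0 on BMDC array 2, with a median of 0.54 and summed signals of 6087 and 1394. Of 9 B and T cell markers 6 were higher on BMDC array 1 and 1 on BMDC array 2 (median 1.25, summed signals 1670 and 461). On BMDC array 2, 4 of these 9 were at or under the 20th percentile, and Cd79b (989.0 and 140.1) held most of the sum on BMDC array 1. Of 11 dendritic cell markers 1 was higher on BMDC array 1 and 2 on BMDC array 2 (median 0.16, summed signals 147796 and 124552). The part of these cells in the spread was not tested.

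**Figure D3:**
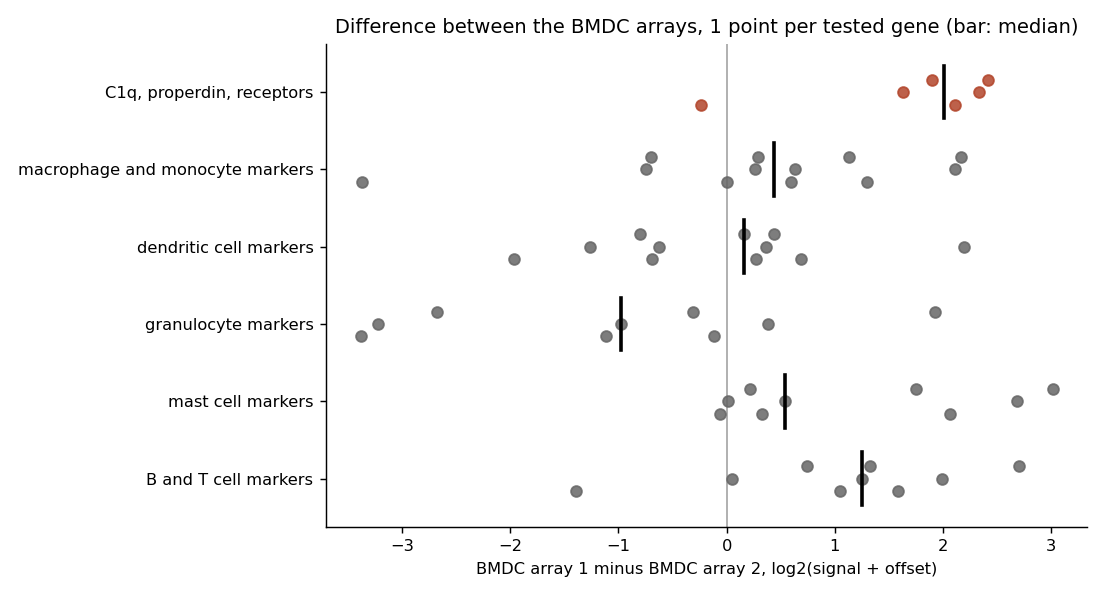
Difference between the BMDC arrays (array 1 minus array 2, log2 scale) for the 6 genes of C1q, properdin and the receptors and for tested markers of 5 groups of cells, 1 point per gene read by its brightest probe set, with the median as a bar. Of the 6 genes, 5 lie to the right of 1, and Cfp lies at -0.24; granulocyte markers have their median to the left of 0, at -0.98.

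The FDC arrays carried signals of leukocyte genes, and these are given beside the result on FDC. The brightest myeloid markers there were well above the array medians: named after their values were seen, the lysozyme Lyz2 was at 1449 and 557 in FDC (50308 and 42062 in BMDC), the monocyte marker Cd14 at 1084 and 446 (4474 and 7511) and the class II chain H2-Ab1 at 1140 and 1002 (30228 and 18808). Summed over 14 macrophage and monocyte markers on the array, the signal was 3672 and 2118 in FDC, 822 in FL-Y and 827 in activated FL-Y, and 3 of the 14 were at or under the 20th percentile on each of these 4 arrays. Cd163 and Marco, of the same list, had signals of at most 33.2 and 21.0 on any array. In FDC, 10 of 12 tested markers of this list were lower than in BMDC and 0 higher, Ccr2 by -7.54 ± 0.74 (SE) and Csf1r by -7.26 ± 0.43 (SE). Summed signals of 9 mast cell markers were 7827 and 14138 in FDC, against 6087 and 1394 in BMDC, with 4 of 9 genes higher in FDC and 0 lower; Cma1 was higher by 5.47 ± 0.83 (SE; not called without FDC array 2, adjusted p = 0.0518) and Tpsab1 by 4.58 ± 0.39 (SE). Of the 9 T and B cell markers 2 were higher in FDC, Cd3d by 3.95 and Cd3g by 3.31, but the adjusted p rose to 0.0627 and 0.0874 when BMDC array 2 was left out and to 0.0770 and 0.0857 when FDC array 1 was. The other mast cell genes were not called and went both ways: Hdc -2.00, Ms4a2 -1.12, Kit -0.84, Fcer1a 0.81 and Cpa3 1.01. Among B cell genes, none called, Cd79b (-1.93), Cd79a (-1.41) and Ms4a1 (-0.41) pointed lower in FDC and Pax5 (0.74) higher. The T cell genes Cd8a (2.00), Cd3e (1.87) and Cd4 (1.21) pointed higher without a call. The list of dendritic cell markers had 8 of 11 lower and 0 higher, H2-Aa by -7.88 and Cd74 by -6.58. That of granulocyte markers had 8 of 9 lower and 0 higher, S100a9 by -11.00 and S100a8 by -6.94. That of fibroblast markers had 8 of 10 higher and 0 lower, Dcn by 9.67 and Col3a1 by 9.14. Over the 6 genes of C1q, properdin and the receptors the summed signal was 33937 and 24306 in BMDC, 160 and 375 in FDC, 143 in FL-Y and 156 in activated FL-Y. Cfp alone held 16694 and 19694 of the BMDC sums. The part of leukocytes in the FDC signals was not tested.

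The other complement genes divided between the cell types. Of 48 such genes 37 were on the array with a probe set of their own and 27 were tested, of which 8 were higher and 5 lower in FDC, where 5.87% of all genes tested were higher and 5.4% lower. Of 8 tested genes of the classical and lectin pathways 4 were higher and 0 lower in FDC, with a median of 1.93, beside -0.03 over all genes tested. The other 4, Fcna (-2.06 ± 0.58, SE), Mbl2, Masp2 and Mbl1 of the lectin pathway, did not pass. C1s1, the C1s protease, had signals of 67.6 and 52.4 in BMDC and 15516 and 10653 in FDC, a difference of 7.45 ± 0.41 (SE; adjusted p = 0.00264 in limma). C1ra, the C1r protease, was at 506.1 and 429.1 in BMDC and 12074 and 3266 in FDC, a difference of 3.71 ± 0.68 (SE; adjusted p = 0.0338), which was lost without BMDC array 1 (adjusted p = 0.0880) or BMDC array 2 (0.105). C2, which is cut by C1s, was higher by 7.74 ± 0.49 (SE) and Masp1, a protease of the lectin pathway, by 6.18 ± 0.48 (SE). C1qa, C1qb and C1qc were thus low on the FDC arrays, where C1s1 and C1ra were high, and high on the BMDC arrays, where these were lower. C1qb 1417063_at was at about the array median on FDC array 2. In FL-Y, C1s1 was at 663.0 and C1ra at 600.4, both under their FDC signals.

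Of the alternative pathway, in which properdin acts, Cfb was the 1 gene tested: it encodes factor B, the protease that properdin holds in the convertase, and was higher in FDC by 3.86 ± 0.57 (SE; adjusted p = 0.0180 in limma), with signals of 165.4 and 158.6 in BMDC and 4178 and 1542 in FDC. Its call was lost without BMDC array 1 (adjusted p = 0.0588) or BMDC array 2 (0.0619). Of the terminal pathway 2 genes were tested and 0 were called in limma; Hc, which encodes C5, the source of the C5a peptide, had a difference of -0.49 ± 0.51 (SE; adjusted p = 0.638) and C8g one of -0.48 ± 0.55 (SE; adjusted p = 0.665), and 0 of the 2 had an unadjusted p under 0.05. Of 8 tested regulators 2 were higher in FDC and 1 lower, with a median of 1.55: Serping1, the inhibitor of C1r and C1s, was higher by 8.85 ± 1.11 (SE), the decay-accelerating factor Cd55 higher by 3.72 ± 0.44 (SE) and clusterin, Clu, lower by -4.92 ± 0.61 (SE).

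Among 8 tested receptors for other complement fragments and for C1q, 4 were lower and 1 higher in FDC, with a median of -1.78. The chains of the leukocyte integrins that bind the C3 fragment iC3b were lower: Itgax by -8.10 ± 0.71 (SE), Itgam by -7.07 ± 0.40 (SE) and Itgb2 by -6.27 ± 0.39 (SE). Cd93, once described as a C1q receptor, was lower by -2.89 ± 0.47 (SE; adjusted p = 0.0232 in limma), a call lost without BMDC array 1 (adjusted p = 0.0845), FDC array 1 (0.0603) or FDC array 2 (0.0664). The gene that was higher, named after its values were seen, was the endocytic receptor Lrp1, at 2.10 ± 0.45 (SE; adjusted p = 0.0497), whose call was lost whichever array was left out (adjusted p = 0.0747 to 0.190).

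**Figure D4:**
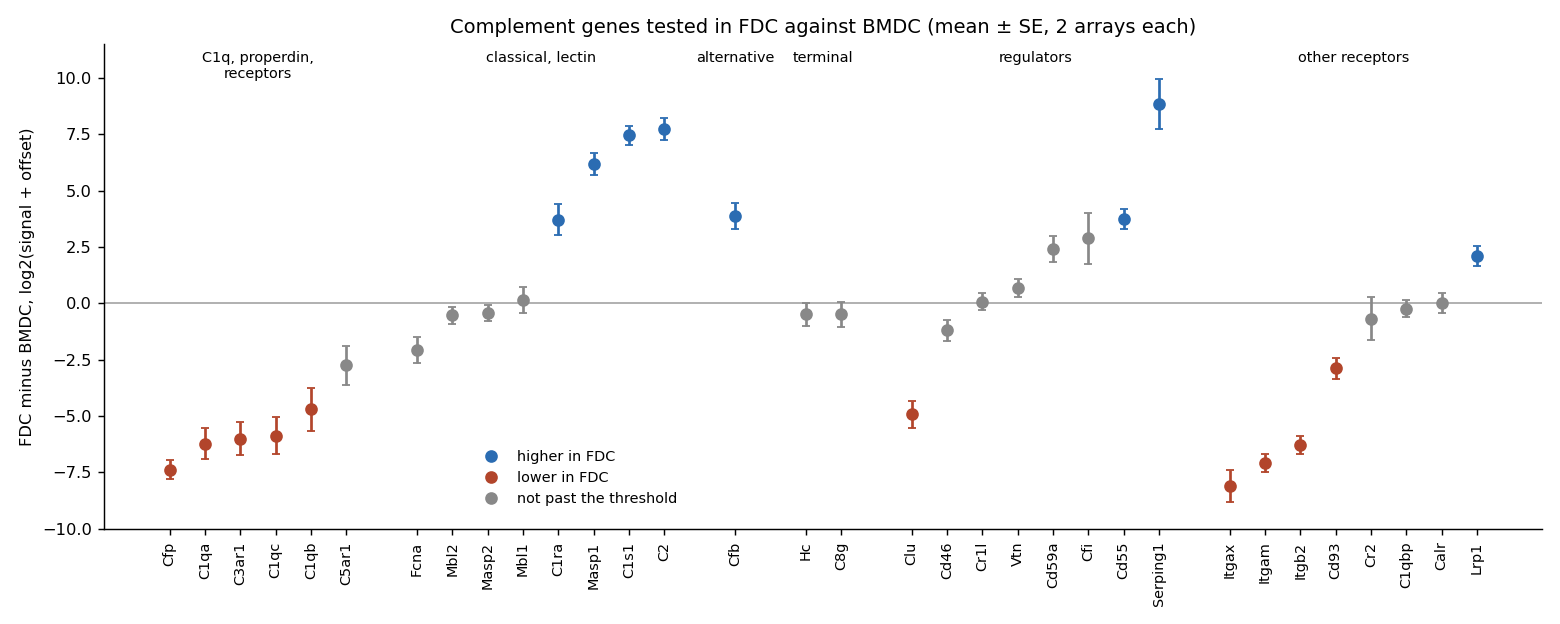
Log2 difference of FDC minus BMDC (mean ± SE from limma, 2 arrays each) for the 6 genes of C1q, properdin and the receptors and for 27 other complement genes tested, grouped by role and read by the brightest probe set of each gene. C1qa, C1qb, C1qc and Cfp lie between -7.38 and -4.71, while C1ra, C1s1, C2 and Cfb lie between 3.71 and 7.74.

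FL-Y was set against BMDC without a test, since it has 1 array. On the log2 scale 11 of the 12 probe sets were lower by at least 1 in FL-Y than in the BMDC mean and 0 were higher, where 24.0% of all probe sets tested were lower and 16.2% higher by that much. The differences were -6.86 for C1qa, -5.77 for C1qb 1417063_at, -6.09 for C1qc, -7.70 for Cfp 1452279_at, -6.12 for C3ar1 1442082_at and -4.11 for C5ar1 1422190_at. The exception was Cfp 1447537_at, at -0.60. This comparison shares the BMDC arrays with that of FDC and BMDC. On the FL-Y array 6 of the 12 signals, those of C1qa, C1qc, both C5ar1 probe sets and C1qb 1417063_at and 1437726_x_at, were at or under the array's 20th percentile, so the size of these differences rests on the offset.

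For 11 of the 12 probe sets FL-Y and the FDC mean lay closer to each other than either lay to the BMDC mean. The exception was Cfp 1447537_at, at 0.69 from FDC and -0.60 from BMDC. The same count was not made over all probe sets, and many of these signals were near background in both FDC and FL-Y. No likeness of FL-Y to FDC is therefore read from it. Between FL-Y and the FDC mean 10 of 12 probe sets differed by less than 1; 2 were lower in FL-Y by at least 1, C1qb 1417063_at at -1.06 and C5ar1 1422190_at at -1.35, and 0 were higher, where 21.2% of all probe sets tested were lower and 11.6% higher by that much. The count of probe sets lower by at least 1 was 5 with no offset (2 higher), 0 with the larger offset (0 higher) and 1 with either other scaling (1 and 2 higher), so no order of FL-Y and FDC is read from it. After activation through the lymphotoxin beta receptor 11 of the 12 lay within a difference of 1 of untreated FL-Y. C1qb 1434366_x_at was lower by at least 1, from 43.5 to 11.7, a difference of -1.16, where 5.96% of all probe sets tested were lower and 3.51% higher by that much. The other C1qb probe sets differed in direction, 1417063_at at -0.48 and 1437726_x_at at 0.56. C3ar1 1442082_at had the largest difference upward, from 46.6 to 95.6, at 0.85, while the other C3ar1 probe sets were at -0.19 and 0.07. With 1 array of each condition these differences have no replicate check, and the median of all probe sets tested moved from -0.02 to 0.31 when the arrays were rescaled to one median.

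Genes whose pattern over the 6 arrays was most like that of each gene were sought among 12750 tested genes, by the root mean square of the difference between log2 profiles centred on their own mean. The nearest to C1qa were Cd84 (0.36), Prkcb (0.39) and Ly86 (0.48), and to C1qb Matk (0.22), Rgs18 (0.36) and Tmem51 (0.39). C1qc was nearest to the endosomal receptor Tlr8 (0.41), Klrb1a (0.43) and Mrc1 (0.44). Cfp was nearest to Csf1r, the receptor for macrophage colony-stimulating factor (0.27), Pik3ap1 (0.37) and Myo1f (0.39). The nearest to C3ar1 were Cd300lb (0.47), Vwf (0.49) and Arg2 (0.49), and to C5ar1 the Fc receptor Fcgr4 (0.33), Cadm1 (0.38) and Ms4a6c (0.39). Among the 6 genes themselves C1qa and C1qc were nearest, at 0.34, C1qb lay 0.86 from C1qa and 0.84 from C1qc, and Cfp and C5ar1 were farthest apart, at 2.14. These distances describe 6 arrays of which 2 carry most of the signal.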

How the data were processed

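The deposited table gives 1 signal intensity for each probe set and array. The authors had brought the arrays to a common level, since the trimmed mean of each (2% off either end) was 500; neither the program nor its treatment of background is given in the sources used here. Detection calls were not used. Genes were named from the platform annotation. To each signal 14.2, the median over arrays of their 20th percentiles, was added before taking log2. Probe sets whose mean over the 4 arrays of FDC and BMDC exceeded the 40th percentile (46.4 signal units) were kept for testing, 27022 in all. The test was limma 3.58.1 under R 4.3.3 (2 residual plus 3.35 prior degrees of freedom, two-sided, checked on simulated data), with Benjamini-Hochberg adjustment and a threshold of 0.05. The FL-Y arrays were described without a test. The number of arrays limits the precision.

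Every probe set of the 6 genes is named; of each other complement list up to 4 called genes with the largest difference (2 genes if no call was made), of each marker list the 2 largest, and for each of the 6 genes the 3 nearest patterns. Genes of a list were read by the probe set with the highest mean. The genes and lists were chosen with earlier results of these data known. Some listed genes, among them C3, C4a, C4b, C7 and C5ar2, were not analysed here. Alternatives were a floor at signal 3.1, the 5th percentile, in place of the offset, a larger offset, the 40th percentile (52.2), quantile normalization, scaling all arrays to the same median, no filter, a filter at the 60th percentile, a replicate block, and leaving out each array.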

Additional observations from a re-analysis of the deposited data

How the results depend on the processing

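In FDC against BMDC the count of called probe sets of the 6 genes was 7 and lay between 5 and 8 under every alternative tried, all of them lower in FDC; the count over all probe sets, 2413, was 1443 with no offset and a floor, 1433 with no filter and between 1312 and 2090 without 1 array (1333 and 1312 without BMDC array 1 and 2), and that of other complement genes, 13, lay between 9 and 14. The log2 difference kept its sign for each of the 12 probe sets under the alternatives run, except Cfp 1447537_at, which ranged from -2.81 to 0.24 when 1 array was left out and reversed without FDC array 1. Hc (-1.07 to 0.10) reversed without FDC array 1 and C8g (-1.03 to 0.064) without FDC array 2; the causes were not tested. C1qb 1417063_at also lost its call with no offset (adjusted p = 0.0937) and with no filter (0.0829), as did C1ra (0.0644 and 0.0700), Cd3d (0.0703 and 0.0557), Cd3g (0.0698 and 0.0639) and Lrp1 (0.0827 and 0.109; also 0.0509 with quantile normalization and 0.0543 with rescaling); Serping1 (0.0508), Cma1 (0.0532) and Dcn (0.0587) lost it with no offset and Cd93 with no filter (0.0563). The labels do not say that the replicate numbers pair the samples, and the first BMDC array carries none (the differences of array 1 and array 2 in BMDC and FDC correlated at r = 0.199 over probe sets); with the replicate block 8 probe sets of the 6 genes were called, C1qb 1417063_at losing its call (adjusted p = 0.0869), as did Lrp1 (0.0569), and C1qb 1437726_x_at (0.0211) and C5ar1 1439902_at (0.0282) passing, beside 2392 probe sets in all and 13 other complement genes.

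In FL-Y against BMDC 11 probe sets were lower by at least 1 under each alternative. In FL-Y against FDC, 2 were lower, with 5 under no offset (2 higher), 0 under the larger offset (0 higher), 1 under quantile normalization (1 higher) and 1 under rescaling to one median (2 higher); without FDC array 2, 2 were lower and 2 higher. In activated FL-Y against FL-Y, 1 differed by at least 1, with 4 under no offset, 0 under the larger offset and 2 under rescaling. Signals near the background mark limit these differences.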
